A study of Mus musculus with 2 samples.

Results

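The minichromosome maintenance (MCM) family was followed in regenerating mouse liver through 10 genes taken by name, Mcm2 to Mcm10 and Mcmbp. They were chosen with earlier results of these data known. Each of the 10 genes had a single row in the deposited expression table, which holds 33224 gene symbols. All 10 belonged to the 11723 symbols with a mean FPKM of at least 1 over both libraries, here called expressed genes. FPKM is the number of sequenced fragments per kilobase of exon and scaled to the number of mapped fragments, so levels of genes of different length can be compared. RNA-sequencing was performed on whole liver of C57BL/6 male mice 48 hr after partial hepatectomy (PH), the surgical removal of most of the liver, with 1 library of wild-type (WT) mice and 1 of PPARbeta-null mice (KO). The sample labels give an age of 4 months for both, while the growth protocol and the design text give other ages, and food was freely available. KO mice lack the nuclear receptor PPARβ, which regulates lipid and glucose metabolism, and no tissue-restricted deletion is named. Whether a library came from 1 mouse or from a pool is not given in the sources used here, and no liver without PH was sequenced. With 1 library per genotype no difference below has a replicate check, no test of the genotype was possible, and each value is that of 1 library. The intervals given are 95% exact binomial intervals on fragment numbers estimated from the FPKM, and they cover counting error only.

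MCM2 to MCM7 form the ring at the core of the replicative DNA helicase. The origin recognition complex (ORC), CDC6 and CDT1 load the ring onto DNA in G1, and CDC45 and the GINS complex join it in S phase to make the active helicase. Quiescent hepatocytes hold little of the ring proteins and make them when they enter the cell cycle after PH. MCM8 and MCM9 are paralogs that act in homologous recombination, MCM10 helps to activate the loaded helicase, and MCMBP binds MCM subunits.

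The mRNAs of all 6 ring subunits were lower in KO than in WT liver, by 4.89- to 24.6-fold, and Mcm8 was lower by 9.26-fold. Mcm9 and Mcmbp were lower by less than 2-fold, and Mcm10 was the only member with a higher value in KO. Thus 7 of the 10 members were more than 2-fold lower in KO and 0 were more than 2-fold higher. Of all expressed genes 8.69% were more than 2-fold lower and 1.77% more than 2-fold higher, so that 83.1% of the genes past 2-fold were lower. With the libraries centred on the median of expressed genes this split was 68.5%, and 7 members were still more than 2-fold lower. The median log2 KO/WT, computed with 0.1 FPKM added to each value, was -2.97 for the 6 ring subunits, -0.55 for the other 4 members and -0.24 for all expressed genes. At any size of difference, 9 of the 10 members and 75.6% of expressed genes were lower in KO. The share of all expressed genes depended on the scaling, with 54.4% lower at equal upper quartiles and 50.4% lower when centred, while the same 9 members were lower under both. In a whole-tissue library, fewer cells that express a gene and less of its mRNA per cell cannot be told apart.

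**Figure D1:**
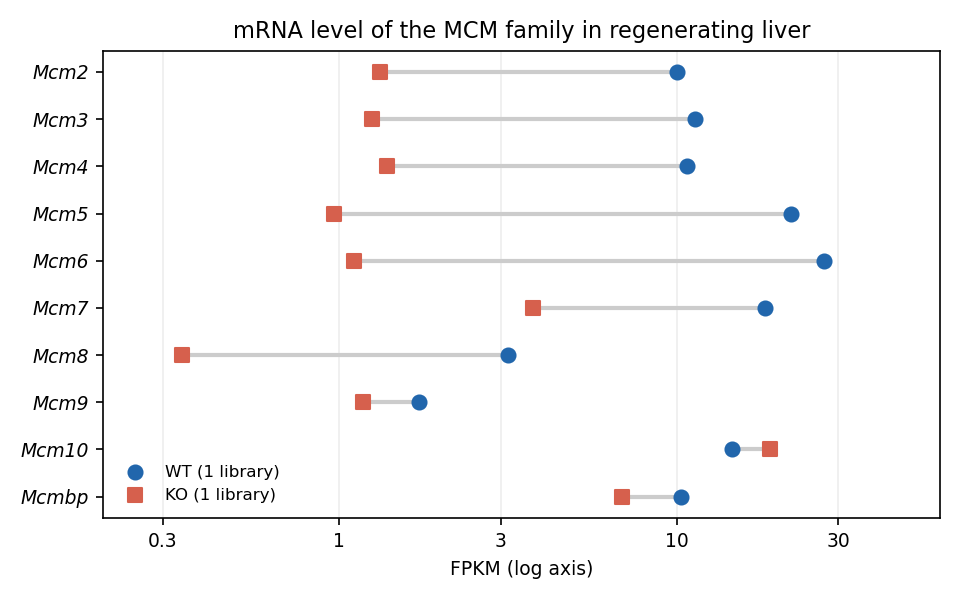
mRNA level of each MCM family gene in FPKM (log axis) in the WT library (blue circles) and the KO library (red squares), with a grey line joining them. The KO value lies left of the WT value for 9 genes, and for Mcm10 it lies to the right, at 18.9 against 14.5 FPKM.

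Mcm6 had the highest level of the family in WT liver. Its mRNA was at 27.2 FPKM in WT and 1.11 FPKM in KO, a 24.6-fold lower level (interval 21.7 to 28.0). The gene lies at chr1:130228168-130256233 on the minus strand of NCBIM37 (mm9) and has 16 exons in its longest transcript. Mcm5 (chr8:77633427-77652338, plus strand, 17 exons) was at 21.8 FPKM in WT and 0.967 FPKM in KO, a 22.6-fold lower level (interval 19.4 to 26.5). MCM5 and MCM2 flank the gate in the ring through which DNA enters. Mcm5 and Mcm6 were the highest subunits in WT and the lowest in KO, and their intervals overlapped each other. Of the expressed genes, 0.648% had a lower log2 KO/WT than Mcm6 and 0.734% a lower one than Mcm5.

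Mcm2, Mcm3 and Mcm4 formed a group with like levels and like differences. Mcm2 (chr6:88833469-88848774, minus strand, 16 exons), whose protein also binds histones at the fork, was at 10.0 FPKM in WT and 1.32 FPKM in KO, a 7.61-fold lower level (interval 6.62 to 8.75). Mcm3 (chr1:20793055-20810359, minus strand, 17 exons) was at 11.3 FPKM in WT and 1.25 FPKM in KO, a 9.03-fold lower level (interval 7.79 to 10.5). Mcm4 (chr16:15623990-15637493, minus strand, 16 exons), a substrate of the CDC7 kinase, was at 10.7 FPKM in WT and 1.38 FPKM in KO, a 7.75-fold lower level (interval 6.80 to 8.85). The 3 intervals overlapped one another, and each lay below those of Mcm5 and Mcm6. Counting error rested on an estimated 174 to 261 fragments for Mcm2 to Mcm6 in KO and on 1739 to 6103 in WT.

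Mcm7 (chr5:138605811-138613650, minus strand, 15 exons) was listed at 18.3 FPKM in WT and 3.74 FPKM in KO, a 4.89-fold lower level and the smallest difference among the ring subunits. Its row in the table is shared with the microRNA genes Mir25 and Mir93, which lie within Mcm7 on the same strand, so the value belongs to the joint locus and was given no interval. The hairpins of Mir25 and Mir93 each overlap an exon of 1 of the 10 annotated Mcm7 transcripts and lie in an intron of 2 others. Mir106b, the remaining hairpin of the cluster, lies in introns of 2 transcripts, has a row of its own and was listed at 0 in both libraries. A library for mRNA is not made to capture mature microRNAs, and their levels were not measured. The mature sequences, from RefSeq, are shown because their genes share the measured locus. Capitals mark the seed, bases 2 to 8, which miR-93-5p and miR-106b-5p have in common and miR-25-3p does not share.
mmu-miR-25-3p: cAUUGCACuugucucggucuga
mmu-miR-93-5p: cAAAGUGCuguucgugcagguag
mmu-miR-106b-5p: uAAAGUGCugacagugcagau

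Mcm7 also shares exon positions with genes on the other strand. Annotated exons of Mcm7 share 321 bases with those of Ap4m1, a subunit of an adaptor complex, and 64 bases with those of Cops6, a subunit of the COP9 signalosome. Cops6 was at 58.2 FPKM in WT and 85.2 FPKM in KO, above Mcm7 in both libraries. Strand-specific counting is not stated, so reads from these shared bases cannot be assigned to one of the genes. Their part in the Mcm7 value was not tested.

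The levels of the 6 subunits summed to 99.2 FPKM in WT and 9.76 FPKM in KO, a 10.2-fold lower sum. The subunits occur once each in the ring, but their mRNA levels were uneven. The highest subunit was 2.72-fold above the lowest in WT and 3.87-fold in KO. Without Mcm7 this ratio was 2.72 in WT and 1.43 in KO, so the KO levels of Mcm2 to Mcm6 were within a narrower range than their WT levels. As a share of the summed subunit level, Mcm6 made up 27.4% in WT and 11.3% in KO, and Mcm5 made up 22.0% and 9.91%. Mcm7 made up 18.4% in WT and 38.3% in KO. Its joint row enters the sum and so every share. Without Mcm7 the sum was 81.0 FPKM in WT and 6.02 FPKM in KO, 13.45-fold lower. The shares of Mcm2, Mcm3 and Mcm4 were 10.1% to 11.4% in WT and 12.8% to 14.1% in KO.

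Mcm8 and Mcm9 encode partners in a complex of their own, outside the ring, and they differed from each other. Mcm8 (chr2:132641877-132669933, plus strand, 18 exons) was at 3.16 FPKM in WT and 0.341 FPKM in KO, a 9.26-fold lower level (interval 7.11 to 12.3) with an estimated 61 fragments in KO. Mcm9 (chr10:53256135-53350245, minus strand, 14 exons) was at 1.72 FPKM in WT and 1.17 FPKM in KO, a 1.47-fold lower level (interval 1.26 to 1.71). The interval of the Mcm8 ratio thus overlapped those of Mcm2, Mcm3 and Mcm4 and lay above that of Mcm9. The level of Mcm8 was 1.83-fold above that of Mcm9 in WT, and the level of Mcm9 was 3.44-fold above that of Mcm8 in KO. The log2 KO/WT of Mcm9, -0.52, differed from the median of expressed genes by -0.28, and 23.0% of those genes had a lower value.

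Mcm10 (chr2:4910760-4933837, minus strand, 20 exons) was at 14.5 FPKM in WT and 18.9 FPKM in KO, a 1.298-fold higher level in KO. The WT to KO ratio was 0.770 (interval 0.738 to 0.805), on an estimated 3645 and 4837 fragments. Its log2 KO/WT of 0.37 was 0.61 above the median of expressed genes, and 93.3% of those genes had a lower value. In WT the level of Mcm10 was 0.983 times the median of the ring subunits, and in KO it was 14.7 times that median. Even against Mcm7, the highest subunit in KO, Mcm10 was 5.05-fold higher. The next annotated protein-coding gene upstream, Optn, an autophagy receptor, lies on the same strand 7851 bases away. It was at 20.9 FPKM in WT and 30.1 FPKM in KO, a 1.44-fold higher level in KO. Whether reads from upstream transcription enter the Mcm10 value was not tested.

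Mcmbp (chr7:135839955-135884009, minus strand, 16 exons) was at 10.3 FPKM in WT and 6.87 FPKM in KO, a 1.496-fold lower level (interval 1.40 to 1.60). Its log2 KO/WT of -0.57 differed from the median of expressed genes by -0.34, and 19.6% of those genes had a lower value. The level of Mcmbp was 0.696 times the median ring subunit in WT and 5.36 times that median in KO. Mcm10 and Mcmbp were therefore the members with the highest levels in KO liver, in front of every subunit of the ring that both proteins bind.

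**Figure D2:**
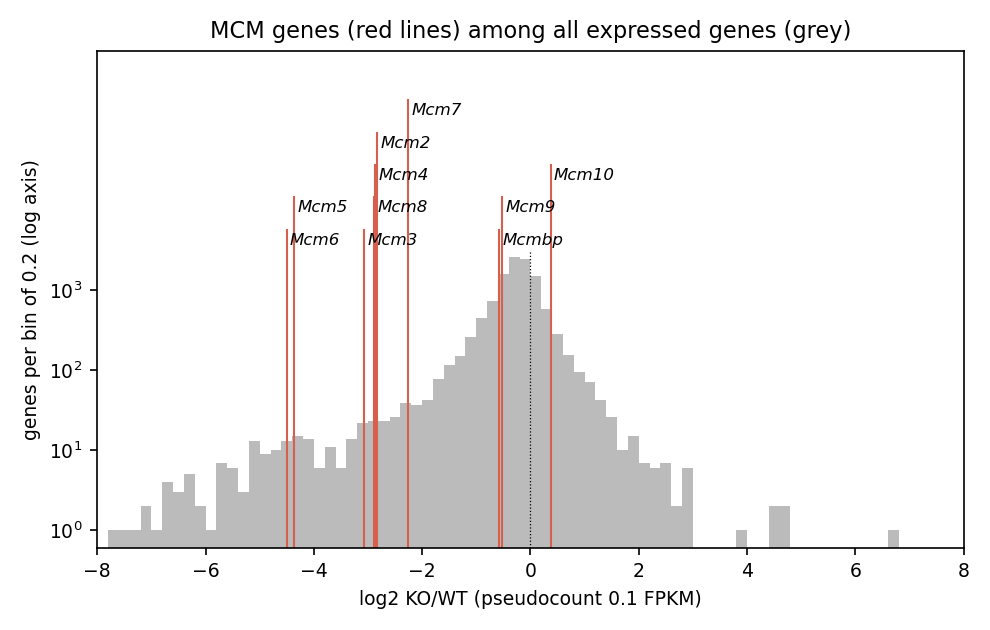
Number of expressed genes (log axis) in bins of 0.2 of log2 KO/WT (grey), with the 10 MCM family genes as red lines. Mcm2 to Mcm8 lie between -4.50 and -2.26 in the lower tail, Mcm9 and Mcmbp lie inside the bulk of genes, and Mcm10 lies right of 0 at 0.37.

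Ranked by level in WT liver, the order was Mcm6, Mcm5, Mcm7, Mcm10, Mcm3, Mcm4, Mcmbp, Mcm2, Mcm8 and Mcm9. From Mcm3 to Mcm2 neighbours in this order differed by 1.03- to 1.06-fold, and the interval of each ratio included 1. Mcm10 was 1.29-fold above Mcm3 (interval 1.22 to 1.36), and Mcm2 was 3.17-fold above Mcm8 (interval 2.88 to 3.49). Ranked by level in KO liver, the order was Mcm10, Mcmbp, Mcm7, Mcm4, Mcm2, Mcm3, Mcm9, Mcm6, Mcm5 and Mcm8. There, Mcm4 to Mcm5 differed from neighbour to neighbour by 1.05- to 1.14-fold, with each interval including 1. Mcm10 was 2.74-fold above Mcmbp (interval 2.59 to 2.91) and Mcm5 was 2.84-fold above Mcm8 (interval 2.10 to 3.86). The family thus spanned 15.8-fold from highest to lowest in WT and 55.3-fold in KO.

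For 3 members another gene starts within 1 kb on the other strand. Mcm4 and Prkdc, the catalytic subunit of the DNA-dependent protein kinase, start 466 bases apart. Prkdc was at 1.001 FPKM in WT and 0.771 FPKM in KO, a 1.298-fold lower level beside the 7.75-fold of Mcm4. Trmt6, a subunit of a tRNA methyltransferase, starts 86 bases from Mcm8 and was at 6.01 FPKM in WT and 5.06 FPKM in KO, a 1.19-fold lower level beside the 9.26-fold of Mcm8. Ap4m1 starts 420 bases from Mcm7, inside it in the GENCODE vM1 annotation but upstream of the annotated Mcm7 starts in RefSeq. Ap4m1 was at 3.92 FPKM in WT and 3.43 FPKM in KO, a 1.14-fold lower level beside the 4.89-fold of Mcm7. In all 3 pairs the MCM gene differed between the libraries more than the gene that starts beside it. Over all nearest, overlapping or divergent protein-coding neighbours, 23 had a value and 14 were expressed. The log2 KO/WT of these 14 ranged from -0.67 to 0.55 with a median of -0.14. The lowest was that of Asf1a, a histone chaperone encoded on the other strand within Mcm9, at 4.63 FPKM in WT and 2.88 FPKM in KO. Thus 0 of the 14 were more than 2-fold lower or higher in KO, against 8.69% lower and 1.77% higher among all expressed genes. With 14 genes a count of 0 is close to these shares. The 9 neighbours with a mean FPKM below 1 were not counted, and Prkdc was among them. So were Podxl2 beside Mcm2 (0.186 FPKM in WT and 0.0362 FPKM in KO) and Lct beside Mcm6 (0.0103 and 0.00249 FPKM). Both Podxl2 and Lct were more than 2-fold lower in KO at these low levels.

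**Figure D3:**
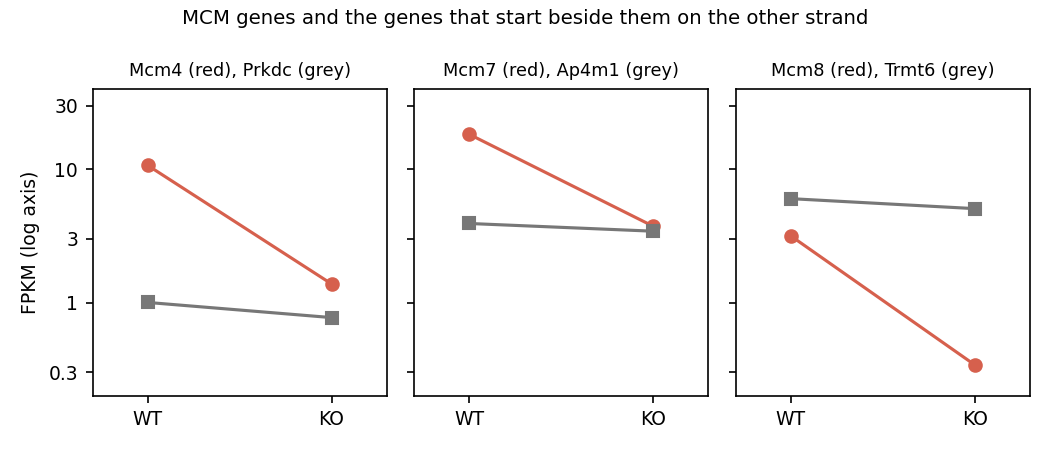
FPKM (log axis) in the WT and KO libraries of Mcm4, Mcm7 and Mcm8 (red) and of the gene that starts within 1 kb of each on the other strand (grey). The red lines drop by 7.75-, 4.89- and 9.26-fold, and the grey lines by 1.298-, 1.14- and 1.19-fold.

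Because 7 of the 10 members were more than 2-fold lower in KO, the promoters of the family were read for short motifs known from cell cycle genes. E2F factors, which drive genes of the G1 to S transition, bind octamers such as TTTCCCGC, TTTGGCGC, TTTCGCGC and TTTGCCGC. These 4 octamers were searched on both strands of the RefSeq promoters (mouse build GRCm38.p6, 250 bases before and 50 bases from the annotated start on), together with CCAAT, the site of NF-Y, and TTTGAA, the cell cycle genes homology region (CHR) of G2 and M phase genes. An E2F octamer and its partner on the other strand can overlap, as in GCGC, and were then counted as separate matches. Among 32851 promoters, 2.26% held an E2F octamer, 37.4% held CCAAT and 17.9% held TTTGAA. A promoter was at hand for 9 members, all but Mcm4. E2F octamers were found in 6 of these 9, those of Mcm3, Mcm5, Mcm6, Mcm7, Mcm8 and Mcmbp. CCAAT was found in 8 of the 9, all but Mcmbp, and TTTGAA in 1, that of Mcm2. These matches are letters in a window and not measured binding.

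The promoters of Mcm6 and Mcm5, the subunits with the largest differences, are printed whole from base 250 before the start up to the start, with the E2F octamers in capitals. They are chr1:128359706-128359955 (minus strand) and chr8:75109259-75109508 (plus strand) of GRCm38.p6.
Mcm6: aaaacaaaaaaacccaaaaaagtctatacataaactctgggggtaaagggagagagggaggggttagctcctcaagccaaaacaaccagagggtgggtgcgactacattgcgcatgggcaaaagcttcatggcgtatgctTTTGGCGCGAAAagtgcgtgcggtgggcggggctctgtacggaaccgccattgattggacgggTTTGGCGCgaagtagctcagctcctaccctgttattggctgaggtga
Mcm5: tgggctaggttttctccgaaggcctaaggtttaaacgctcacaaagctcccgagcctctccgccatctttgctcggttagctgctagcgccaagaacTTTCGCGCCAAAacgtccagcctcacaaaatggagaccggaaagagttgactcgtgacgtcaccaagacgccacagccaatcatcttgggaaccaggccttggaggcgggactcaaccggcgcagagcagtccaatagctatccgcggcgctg
Both hold a pair of overlapping octamers, at -110 to -99 in Mcm6 and -153 to -142 in Mcm5, counted from -1 as the last base before the start. Mcm6 holds another octamer at -47 to -40.

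In the other 4 promoters, the matches of Mcm3 and Mcm8, like 1 of Mcm7, lie past the annotated start. Those of Mcm3 cover bases 20 to 27 and 39 to 46 from the start, and that of Mcm8 covers bases 40 to 47. The matches in these 4 promoters are shown as stretches of 30 bases, again with the octamers in capitals. They are chr1:20820266-20820295 for Mcm3, chr5:138172030-138172059 and chr5:138171849-138171878 for Mcm7, chr2:132816161-132816190 for Mcm8 and chr7:128740436-128740465 for Mcmbp, of which that of Mcm8 is on the plus strand and the others are on the minus strand.
Mcm3: tgGCGGGAAAacttgggaagtTTTGGCGCc
Mcm7, upstream: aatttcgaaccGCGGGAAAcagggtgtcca
Mcm7, past the start: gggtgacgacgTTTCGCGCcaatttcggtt
Mcm8: gcagaagcgcgtcatagacGCGCCAAAaaa
Mcmbp: ggtggccgcgaTTTCCCGCcattgtgagaa
Set beside the differences in level, Mcm6 (24.6-fold lower in KO) holds 3 octamers and Mcm5 (22.6-fold), Mcm3 (9.03-fold) and Mcm7 (4.89-fold) hold 2 each. Mcm8 (9.26-fold) and Mcmbp (1.496-fold) hold 1 each. The overlapping pair in Mcm6 and that in Mcm5 count as 2 here although each covers 1 stretch, so the counts are not numbers of separate sites. Whether octamer counts go with the differences was not tested. Mcm2 (7.61-fold lower), Mcm9 (1.47-fold lower) and Mcm10 (1.298-fold higher) hold 0, as does a second annotated promoter of Mcm7. The window of Ap4m1, 1.14-fold lower in KO, covers the same 2 octamers as that of Mcm7, at the same positions of the genome.

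**Figure D4:**
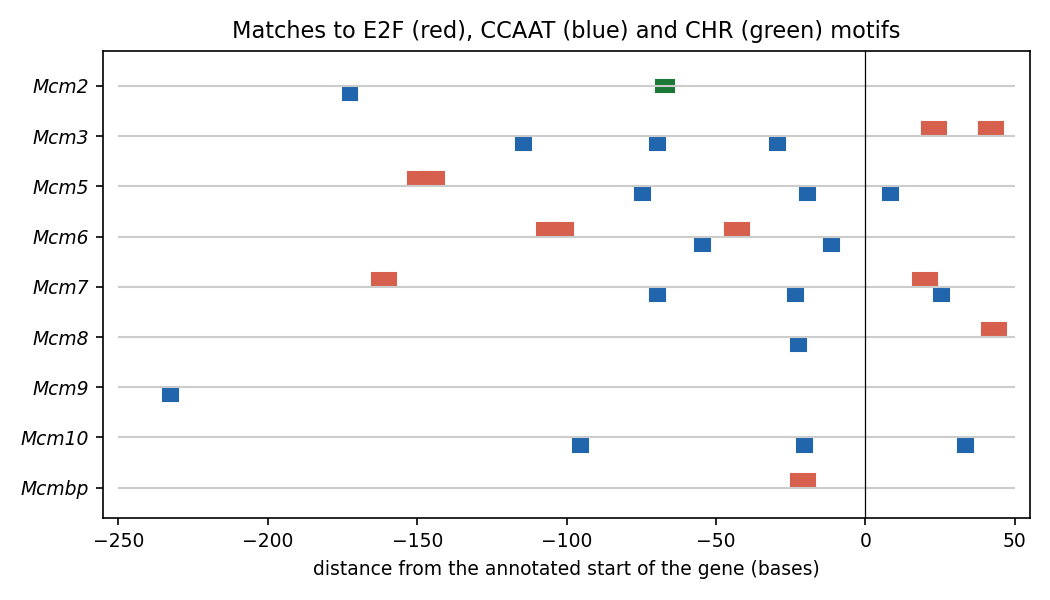
Positions of matches to E2F octamers (red), CCAAT (blue) and TTTGAA, the CHR (green), in bases from the annotated start, in the promoters of the 9 MCM family genes with an entry. Red marks stand in 6 rows, with overlapping pairs merged into wider marks in Mcm5 and Mcm6, and the only green mark is in Mcm2.

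The proteins that load and activate the ring were read from 4 gene lists with 25 genes, 23 of which had a value. Of these 23, 17 were more than 2-fold lower in KO and 0 more than 2-fold higher, with a median log2 KO/WT of -1.74. Of the 17 list genes that were expressed by the limit used above, 11 were more than 2-fold lower, against 8.69% of all expressed genes. The lists were chosen with earlier results of these data known, so this comparison is not a test. The other 6, all with a mean FPKM below 1, were each more than 2-fold lower. The share over all genes was 13.4% when the limit was lowered to 0.1 FPKM. That share includes the genes of at least 1 FPKM, and the share among genes below 1 FPKM alone was not computed. The rows of Orc5, Timeless and Donson are shared with other genes, and among the 20 remaining genes 17 were more than 2-fold lower, with a median of -1.96. Cdt1 and Gins2 were not analysed here.

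The ORC genes, whose products mark origins through the cycle, were split. Orc1, the subunit with a cyclic level, was at 0.391 FPKM in WT and 0.0152 FPKM in KO, a 25.8-fold lower level on an estimated 3.28 fragments in KO (interval 9.35 to 140). Orc6 was at 4.82 FPKM in WT and 1.39 FPKM in KO, a 3.45-fold lower level (interval 2.82 to 4.28). Orc2, Orc3 and Orc4 were lower by 1.08- to 1.54-fold, and the joint row of Orc5 by 1.27-fold. Thus 2 of 6 ORC genes and 6 of 6 ring subunits were more than 2-fold lower in KO, beside 8.69% of all expressed genes. Orc1 was below the limit for expressed genes. Of the loading factors, Cdc6 was at 2.89 FPKM in WT and 0.0891 FPKM in KO, a 32.4-fold lower level (interval 21.0 to 50.5). Gmnn, which encodes geminin, the inhibitor of CDT1, was at 11.7 FPKM in WT and 3.25 FPKM in KO, a 3.61-fold lower level (interval 3.08 to 4.26).

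All 10 measured genes of helicase activation were more than 2-fold lower in KO, 1 of them by a margin that other scalings removed. Of these 10, 6 had a mean FPKM of at least 1. The share over all genes was 8.69% at that limit and 13.4% at a limit of 0.1 FPKM. Cdc45, which joins the ring in the active helicase, was at 4.67 FPKM in WT and 0.399 FPKM in KO, an 11.7-fold lower level (interval 8.64 to 16.3). Among the GINS genes, Gins3 was 6.16-fold lower, Gins1 was 3.45-fold lower and Gins4, at 11.6 and 5.81 FPKM, lay at the threshold with 2.00-fold (interval 1.78 to 2.26). With the libraries scaled to equal sums, equal upper quartiles or the median of expressed genes, Gins4 was no longer past 2-fold and 16 genes of the 4 lists were. The kinase that phosphorylates the ring consists of CDC7 and DBF4, and Cdc7 was 7.11-fold lower and Dbf4 8.13-fold lower. Ticrr, a factor that brings CDC45 to the ring, was at 0.619 FPKM in WT and 0.00761 FPKM in KO, with an estimated 2.88 fragments in KO and a ratio of 81.4 (interval 26.4 to 381). Topbp1, Mtbp and Recql4, which act in the same step, were 4.43-, 3.15- and 3.09-fold lower. Mcm10 acts in this step too, and unlike these 10 genes it had a higher value in KO.

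Among proteins that travel with the helicase at the fork, Clspn, the checkpoint mediator claspin, was 42.5-fold lower in KO (interval 21.3 to 90.2). Wdhd1, which links the helicase to DNA polymerase alpha, was 6.46-fold lower and Tipin, the partner of TIMELESS, was 2.67-fold lower. The row of Timeless is shared with Apon and was at 204 FPKM in WT and 263 FPKM in KO. The row of Donson is shared with Atp5o, a subunit of the mitochondrial ATP synthase, and was at 194 and 119 FPKM. Neither value can be assigned to the fork gene.

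**Figure D5:**
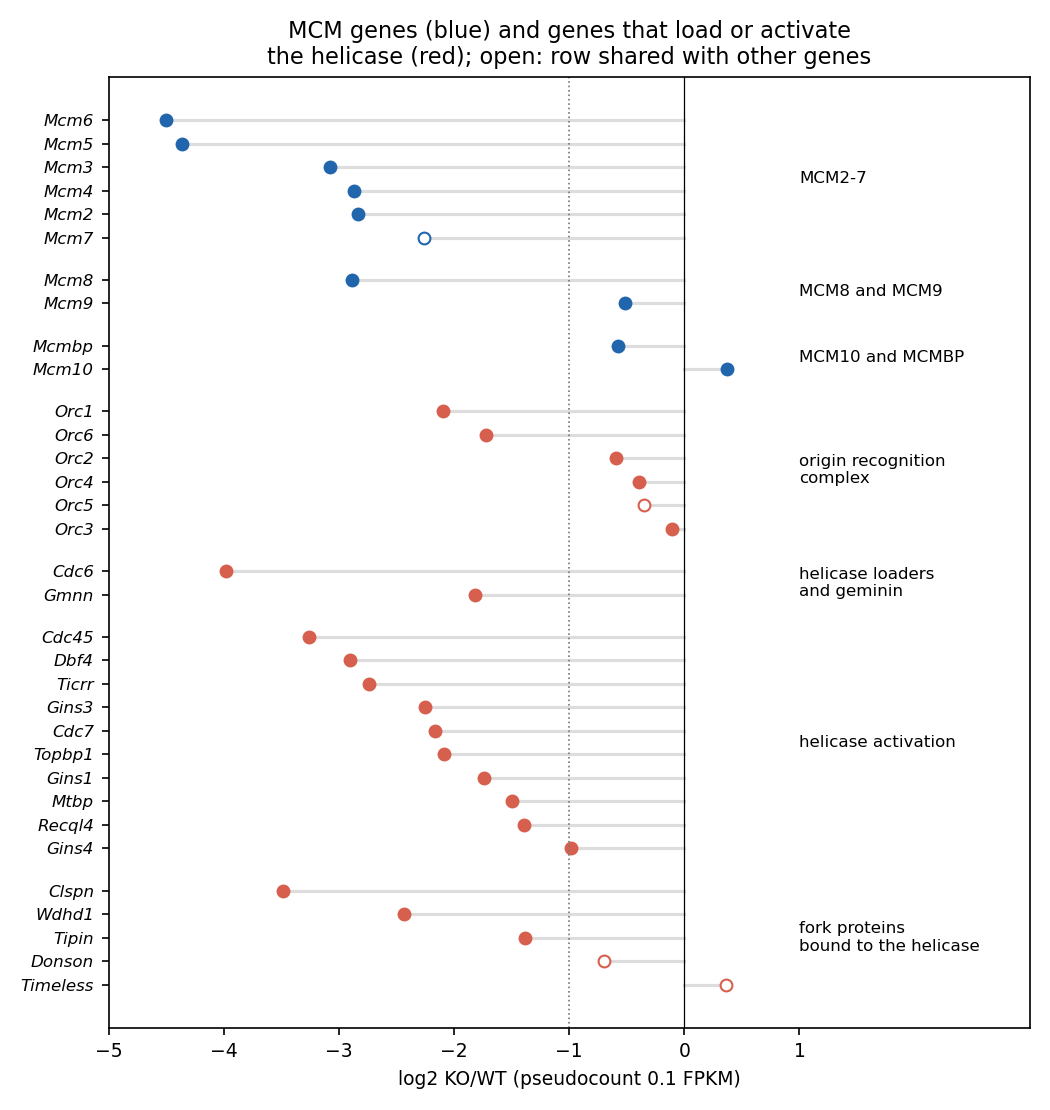
log2 KO/WT of the MCM family genes (blue) and of the genes that load, activate or travel with the helicase (red), grouped by role, with open circles for rows shared with other genes and a dotted line at 2-fold lower. All ring subunits and all genes of helicase activation lie left of or at the dotted line, whereas Orc2 to Orc5, Mcm9, Mcmbp and Mcm10 lie right of it.

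The genes with levels most like the median ring subunit, 14.8 FPKM in WT and 1.28 FPKM in KO, were sought by distance in log2 FPKM over the 2 libraries. The 5 nearest were Nek2, Aurka, Pttg1, Cdkn2c and Cenpa, at distances of 0.211 to 0.482. Nek2 and Aurka encode mitotic kinases, Pttg1 encodes securin, Cdkn2c an inhibitor of CDK4 and CDK6, and Cenpa the histone variant of centromeres. Their levels were 11.6 to 19.3 FPKM in WT and 1.05 to 1.58 FPKM in KO. With 2 libraries, likeness of this kind means a like level and a like ratio and no more.

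Other facts of the libraries bear on these values. Ppard, which encodes PPARβ, was at 2.67 FPKM in WT and 2.42 FPKM in KO (ratio 1.103, interval 0.961 to 1.26), so its mRNA did not separate the genotypes, and the values are those of the libraries labelled WT and KO. Whether the null allele removes the measured exons is not given in the sources used here. A fragment on 1 kb of exon was worth an estimated 0.0194 FPKM in WT and 0.0190 FPKM in KO. The ratio of these values was sought only near 1, so a large difference in depth could not have been found. The fragment numbers and the intervals rest on this estimate. Hepatocyte markers, led by Fga, Serpina1a and Apoa1, summed to 16989 FPKM in WT and 17313 FPKM in KO, with 4 of 8 lower. The near-equal sums held opposed differences, since Fga was 1.92-fold higher in KO while Ass1 and Cps1, enzymes of the urea cycle, were 2.72- and 2.15-fold lower. Macrophage markers, led by Cd5l, Clec4f and Marco, summed to 59.7 and 37.3 FPKM with 6 of 7 lower in KO, endothelial markers to 28.4 and 17.5 FPKM with 5 of 6 lower, stellate cell markers to 87.8 and 59.9 FPKM with 6 of 6 lower, and cholangiocyte markers to 29.8 and 25.7 FPKM with 5 of 5 lower. Erythroid markers summed to 157 and 140 FPKM with 3 of 5 lower. Neutrophil markers summed to 12.8 and 6.82 FPKM with 2 of 5 lower and Ly6g and Camp listed at 0 in both, and lymphocyte markers to 0.645 and 0.359 FPKM with 5 of 6 lower. As deposited, the sums of all 7 lists of other cell types were thus lower in KO, as were most MCM genes. Each sum was lower by less than 2-fold. At any size of difference, 75.6% of expressed genes were lower as deposited and 50.4% when centred on their median. The erythroid and cholangiocyte sums differed by less than the factor of 1.18 that centring applied to KO, so they were not lower when centred. Single markers went past 2-fold. Lower were 2 of 5 cholangiocyte, 1 of 6 stellate, 1 of 6 endothelial and 1 of 7 macrophage markers. Also lower were 1 of 5 neutrophil and 2 of 6 lymphocyte markers. Higher were 1 of 5 neutrophil and 1 of 5 erythroid markers, both near 0 FPKM. Of all expressed genes 8.69% were this much lower and 1.77% higher. The part of these cell types in the MCM values was not tested.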

How the data were processed

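Livers of regenerating WT and KO mice (1 library each) were sequenced by the authors with 100-base reads on an Illumina HiSeq instrument. The labels call the reads paired end and the methods single end. Reads were aligned to NCBI37 (mm9) with TopHat 2.0.0 and quantified with Cufflinks 1.3.0 and its program Cuffdiff, which gave the deposited FPKM of each locus. The authors' fold change, test statistic, p-value, q-value and call columns compare the libraries and were not used.

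Of 38016 loci, 21 marked HIDATA were left out, rows of a symbol were summed, and 850 rows naming several symbols gave each symbol the joint value. The ratio is of deposited FPKM, and log2 KO/WT used a pseudocount of 0.1 FPKM, which understates changes of low genes. Background shares cover symbols with a mean FPKM of at least 1. Depth was estimated from the steps of 265 low values of single-exon genes (51.6 fragments per FPKM and kb in WT, 52.7 in KO). Fragments behind a value used the longest annotated transcript, and ratio intervals (95%, exact binomial) cover counting error only. The scripts were tested on simulated data. Genes and coordinates (from 1) are of GENCODE vM1 on NCBIM37, and promoters and microRNAs of RefSeq on GRCm38.p6. All exact matches to the motifs were counted.

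The members and lists were chosen with earlier results of these data known. Named were all members, the genes of the 4 helicase lists, the 3 highest of the marker lists, neighbours of members and the 5 genes nearest to the median ring subunit. Cops6 and Asf1a overlap a member and, like Apon, Atp5o, Mir25, Mir93 and Mir106b, were named after their values were seen, as were Ly6g, Camp, Ass1 and Cps1. Other folds, scalings, pseudocounts, filters and row rules were tried, 12 settings in all. Versions were scipy 1.17.1, numpy 2.4.6, matplotlib 3.10.9 and pandas 2.3.3, run in Python 3.11.15.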

Additional observations from a re-analysis of the deposited data

How the results depend on the processing

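Under the other scalings, pseudocounts and row rules no member changed the sign of its log2 KO/WT, and 7 members were more than 2-fold lower in KO except without rows naming several symbols, where Mcm7 has no value and 6 were. The value of Mcm6 ranged from -4.61 to -3.74, that of Mcm8 from -3.17 to -1.63, that of Mcm7 from -2.29 to -2.02, that of Mcm9 from -0.55 to -0.30 and that of Mcm10 from 0.35 to 0.61, and of 72 values of the 9 members with a counting interval 17 lay outside it. The ratio of the highest to the lowest ring subunit in KO was 1.43 without rows naming several symbols, which leaves out Mcm7 by construction, against 3.87 with them. The background share of genes lower in KO by the fold used, 8.69% as reported, was 19.9% at 1.5-fold and 4.15% at 3-fold, 6.41% with libraries scaled to equal upper quartiles, 6.12% when centred on the median of expressed genes, 13.4% at a mean FPKM of at least 0.1 and 21.0% for any value above 0. The values under another fold or another minimum level follow from the changed limit, and those under another scaling from the factors of 1.15 and 1.18 applied to KO. Centring gave a log2 KO/WT of 0.61 for Mcm10, -0.30 for Mcm9 and -0.34 for Mcmbp. No paired analysis was possible because neither genotype has a second library, and for that reason no replicate could be left out. Depth limits the KO levels of Orc1, Ticrr and Clspn, with 2.88 to 8.67 estimated fragments.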
